A study of Mus musculus with 6 samples.

Results

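The genes described here are 40 genes of the lysosome, the acidic organelle in which cells degrade what they take up and what autophagy delivers. They were chosen by name, and all 40 are among the 54532 genes of the deposited tables. They encode 6 cathepsins, 3 other peptidases, 11 glycosidases, 4 sulfatases, 8 proteins of lipid breakdown and lipid export, 6 membrane proteins, and the transcription factors TFEB and TFE3. RNA was sequenced from kidneys of 3 WT mice and 3 Trpm2-/- mice, labelled TRPM2-KO, all C57BL/6J and 6 to 8 weeks old by the labels; the study's methods give male mice of an older age range. Every mouse had received 18 mg/kg cisplatin and was examined after 72 h, so both genotypes share the drug exposure, and no untreated kidney was analysed here. TRPM2 is a calcium-permeable cation channel opened by oxidative stress. The study asked how its loss affects cisplatin injury and autophagy, and the comparison of Trpm2-/- with WT kidneys addresses whether the transcripts of the degrading organelle differ. The knockout allele lacks exons of the transmembrane region in all cells of the animal, so no cell type is singled out by the design.

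Lysosomal hydrolases are made in the endoplasmic reticulum, tagged with mannose 6-phosphate in the Golgi and delivered to an acidic lumen in which they work best. In the kidney, proximal tubule cells take up filtered protein through the receptors megalin and cubilin and hold an extensive lysosomal system. TFEB and TFE3 enter the nucleus when mTORC1 kinase is inactive and bind the E-box CACGTG in promoters of many lysosomal genes, a set known as the CLEAR network. Both factors are controlled largely by phosphorylation and location, which transcript counts do not measure.

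The E-box letters were looked up in the RefSeq promoters of the GRCm38.p6 assembly, each spanning 250 bases before to 50 bases after a start site. A promoter was given for 35 of the 40 genes, and 12 of these 35 genes, or 34.3%, held CACGTG. Of 27025 mouse genes with such a window, 8.09% held it. The longer palindrome TCACGTGA, which contains CACGTG, was present in 5 of the 35 genes (14.3%) against 1.12% of all genes. The full CLEAR palindrome, which extends TCACGTGA by 1 base on each side, was found in Cln3 alone, or 2.86% of the 35 genes, against 0.37% of all genes. All 3 motifs read the same on both strands. The promoters of Lamp1, with 4 copies, and of Glb1, the gene with the largest decrease below, are shown whole, 5′ to 3′, with CACGTG in capitals. The Lamp1 window lies at chr8:13158911-13159210 and the Glb1 window at chr9:114400828-114401127, both on the plus strand.

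Lamp1: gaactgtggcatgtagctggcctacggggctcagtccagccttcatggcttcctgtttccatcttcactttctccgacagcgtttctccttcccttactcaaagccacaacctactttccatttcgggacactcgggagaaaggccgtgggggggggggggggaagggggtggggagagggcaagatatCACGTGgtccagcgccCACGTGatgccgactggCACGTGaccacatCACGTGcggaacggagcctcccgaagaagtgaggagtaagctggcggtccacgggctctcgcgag
Glb1: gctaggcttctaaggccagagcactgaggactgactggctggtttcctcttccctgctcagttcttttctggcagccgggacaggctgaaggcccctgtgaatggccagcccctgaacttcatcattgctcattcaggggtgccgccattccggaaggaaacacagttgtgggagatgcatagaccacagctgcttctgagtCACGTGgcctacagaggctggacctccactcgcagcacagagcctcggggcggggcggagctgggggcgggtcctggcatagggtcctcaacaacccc

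Short stretches around the motif in other genes show how its neighbouring bases vary, again with CACGTG in capitals. Gaa is shown because it is the other gene with a lower level and a matched E-box, and Ctsd and Cln3 because they hold the longer palindrome. The Gaa stretch lies at chr11:119267819-119267832 on the plus strand, the Ctsd stretch at chr7:142387916-142387929 and the Cln3 stretch at chr7:126583348-126583361, the last 2 on the minus strand.

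Gaa: cgatCACGTGtttg
Ctsd: gtctCACGTGaccc
Cln3: ctgtCACGTGaccc

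The other genes with the motif were Arsa, Ctsa, Ctsl, Gla, Lgmn, Mcoln1 and Naglu. Of the 6 genes with a promoter that were lower in Trpm2-/- kidneys, 2 held CACGTG, and of the 29 that were not called, 10 did. A match is a description of letters and not a measurement of TFEB binding.

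The libraries held between 14053307 and 17150089 counts. A floor of 3 counts corresponds to 0.175 to 0.213 CPM (counts scaled to the library size), and each of the 40 genes was above it in every library, the lowest value being 3.41 CPM for Ctss. The Trpm2 transcript itself was scarce, with counts of 5, 5 and 27 in WT mice and of 10, 16 and 20 in Trpm2-/- mice. The count covers exons that the allele keeps, so it does not test the genotype labels. WT 1 carried more urothelial transcripts, with a summed level of 69.7 CPM against at most 20.1 CPM in the other mice. Trpm2-/- 4 carried more podocyte transcripts, at 509.8 CPM against at most 173 CPM. Transcripts of the mitochondrial genome took 4.43 to 4.72% of counts in WT and 7.91 to 11.04% in Trpm2-/- kidneys.

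All 40 genes passed the filter on low counts, which left 15816 genes for the test. In Trpm2-/- kidneys 8 lysosomal genes were lower (Glb1, Psap, Man2b1, Ctsh, Smpd1, Galns, Neu1 and Gaa), 1 was higher (Npc1) and 31 were not called. A call here is a Benjamini-Hochberg adjusted p under 0.05 from the quasi-likelihood test of edgeR, adjusted over all genes tested. The samples are whole kidney, in which fewer cells of a type and less RNA per cell cannot be told apart. Over all genes tested the same test called 7.28% lower and 4.74% higher, so decreases were more frequent among the 40 genes than over all genes and increases were not, a description without a test. None of the 40 genes passed the study's threshold, an absolute log2 fold change above 1 with an unadjusted p under 0.05, which 4.10% of all genes passed downwards and 3.50% upwards. Counted without adjustment, 16 of the 40 genes had a p under 0.05, against 28.3% of all genes. The log2 fold change was below 0 for 32 of the 40 genes (29 to 33 under other scalings and filters), against 48.4% of all genes. The median over the 40 genes was -0.18, with quartiles of -0.56 and -0.01, and over all genes tested it was 0.02, with quartiles of -0.29 and 0.33. In 15 of the 40 genes every Trpm2-/- mouse lay below every WT mouse, against 16.8% of all genes, and in 4 every Trpm2-/- mouse lay above, against 16.7%.

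Fitted without the genes of the mitochondrial genome, 7 of the 8 genes were lower, Gaa being the exception (edgeR adjusted p = 0.0520), and Npc1 was higher. Fewer genes were called when either WT 2 or WT 3 was left out. The number of lower genes was 1, Glb1, without WT 2 and again 1, Glb1, without WT 3, while the decreases over all genes went from 1152 to 521 and 470. The log2 fold changes of the other 7 genes changed little, from between -0.75 and -0.45 with all mice to between -0.73 and -0.44 without WT 2 and between -0.77 and -0.50 without WT 3. Without Trpm2-/- 1 the number of lower genes was 10, when 848 of 16325 genes were lower in all. With WT 1 and Trpm2-/- 4 both left out it was 4, namely Glb1, Man2b1, Ctsh and Smpd1, when 946 of 15958 genes were lower. The median over the 40 genes was -0.35 without Trpm2-/- 1 and -0.11 without WT 2.

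**Figure D1:**
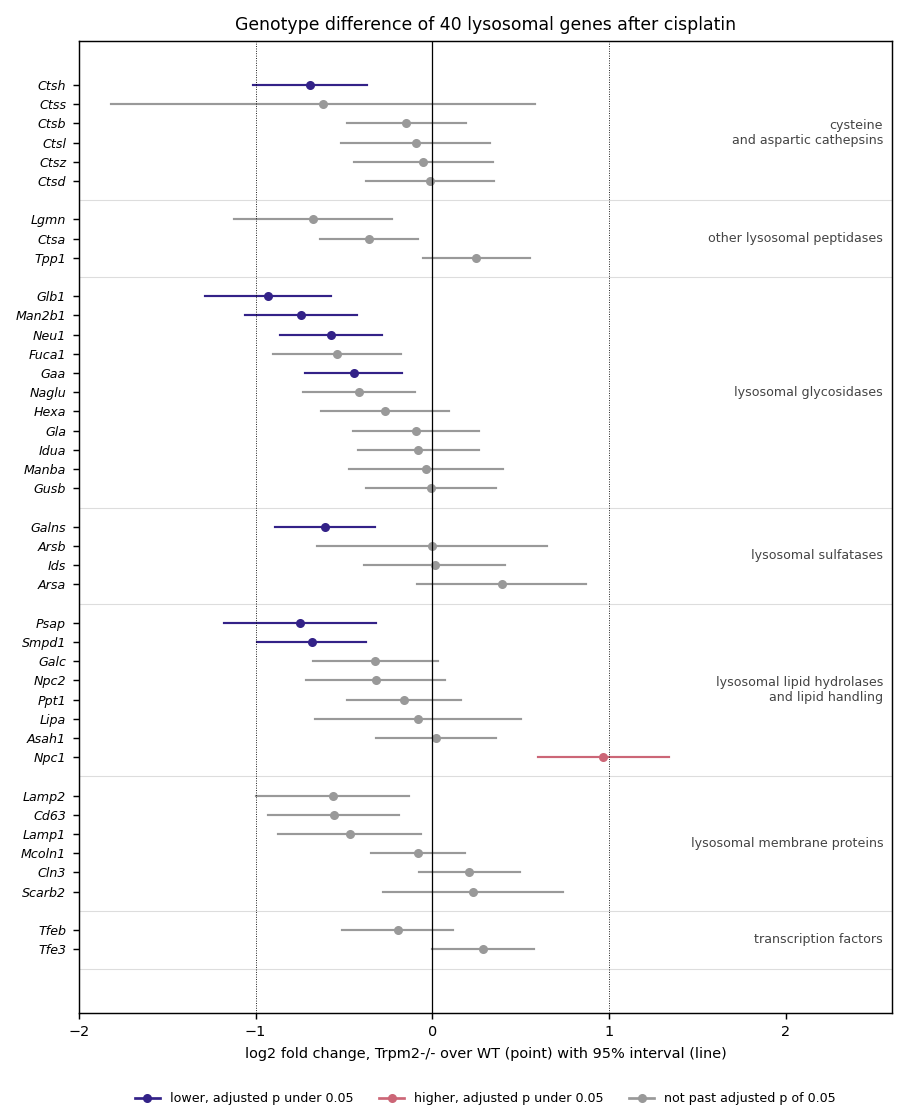
Log2 fold change of each of the 40 genes, Trpm2-/- over WT (x axis), as a point with its 95% interval from edgeR, grouped by role; dotted lines mark an absolute log2 fold change of 1. The 8 genes called lower sit between -0.93 and -0.45, Npc1 sits at 0.97, and all 11 glycosidases lie on the negative side, Gusb and Idua so close to 0 that their side changes with the scaling or the GC correction.

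The glycosidases, which remove sugars from glycoproteins, glycolipids and glycosaminoglycans, were the largest group and held the most called genes. Of the 11, 4 were lower (Glb1, Man2b1, Neu1 and Gaa) and none was higher, against 7.28% lower and 4.74% higher over all genes. Of the 8 lipid genes 2 were lower and 1 was higher. All 11 log2 fold changes of the glycosidases were below 0, and their median was -0.42. Gusb, the closest to 0, lay above it with upper-quartile scaling, without the mitochondrial genome and with a GC correction, where Idua did too. In 6 of the 11 every Trpm2-/- mouse was below every WT mouse, against 16.8% of all genes.

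Glb1, the lysosomal beta-galactosidase, stood at 118, 132 and 128 CPM in WT 1, 2 and 3 and at 73.9, 72.6 and 51.8 CPM in Trpm2-/- 1, 2 and 4. The highest Trpm2-/- mouse was thus well below the lowest WT mouse. Glb1 fell by 0.93 on the log2 scale (SE 0.16, 95% interval -1.28 to -0.58, edgeR adjusted p = 0.00679), or to 0.525 of the WT level. It was called under each of the 20 alternative analyses, with an adjusted p of at most 0.0449. In the deposited tables the gene lies at chromosome 9, 114401076 to 114474898 on the plus strand, the position it has in GENCODE M21 (GRCm38), and 2.99% of its 75-base windows also occur in Tmppe, which had 20 to 120 counts per library.

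Man2b1, the acid alpha-mannosidase that trims N-linked sugar chains, was at 121, 149 and 147 CPM in the WT mice and at 93.2, 76.1 and 80.0 CPM in the Trpm2-/- mice. WT 1 was the lowest of its genotype, yet above each Trpm2-/- mouse. The level fell by 0.74 (log2, SE 0.14, edgeR adjusted p = 0.0106). It lies at chromosome 8, 85083270 to 85098282. Without WT 2 the adjusted p was 0.0621 and without WT 3 it was 0.0618.

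Neu1, the sialidase that removes terminal sialic acid and works in a complex with beta-galactosidase and cathepsin A, measured 300.4, 316 and 328 CPM in WT kidneys. The Trpm2-/- kidneys measured 204, 230.2 and 201 CPM. Both groups were tight and far apart, and Neu1 fell by 0.57 (log2, SE 0.13, edgeR adjusted p = 0.0211). Without WT 2 and without WT 3 the adjusted p was 0.0955 and 0.117, and it was 0.0750 with WT 1 and Trpm2-/- 4 both left out. The gene is at chromosome 17, 34931253 to 34935953.

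Gaa, the acid alpha-glucosidase that breaks down glycogen, had 76.6, 74.3 and 68.3 CPM in WT and 55.6, 49.5 and 55.9 CPM in Trpm2-/- kidneys. The groups did not overlap, and it fell by 0.45 (log2, SE 0.12, edgeR adjusted p = 0.0434), the smallest called change of the set. This call was the least stable, since it was lost when any single mouse was left out (adjusted p from 0.0581 to 0.165). Gaa lies at chromosome 11, 119267887 to 119285454.

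Fuca1, which removes fucose, and Naglu, a heparan sulfate glucosaminidase, had no overlap between genotypes but were not called. Fuca1 was at 326 ± 26.8 CPM in WT and 224 ± 41.0 CPM in Trpm2-/- kidneys (mean ± SD, n = 3 each; log2 fold change -0.54, edgeR adjusted p = 0.0577), and without Trpm2-/- 2 its adjusted p was 0.0249. Naglu was at 52.4 ± 2.46 and 39.3 ± 5.93 CPM (log2 fold change -0.42, edgeR adjusted p = 0.0857), and without Trpm2-/- 2 its adjusted p was 0.0351. The genotypes overlapped for the other 5: Hexa, a subunit of beta-hexosaminidase, Gla, the alpha-galactosidase, Gusb, the beta-glucuronidase, Idua, the iduronidase, and Manba, the beta-mannosidase. Hexa was at 69.2 ± 8.22 CPM in WT and 57.6 ± 9.90 CPM in Trpm2-/- kidneys, and Gusb at 31.6 ± 2.47 and 31.3 ± 6.27 CPM.

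**Figure D2:**
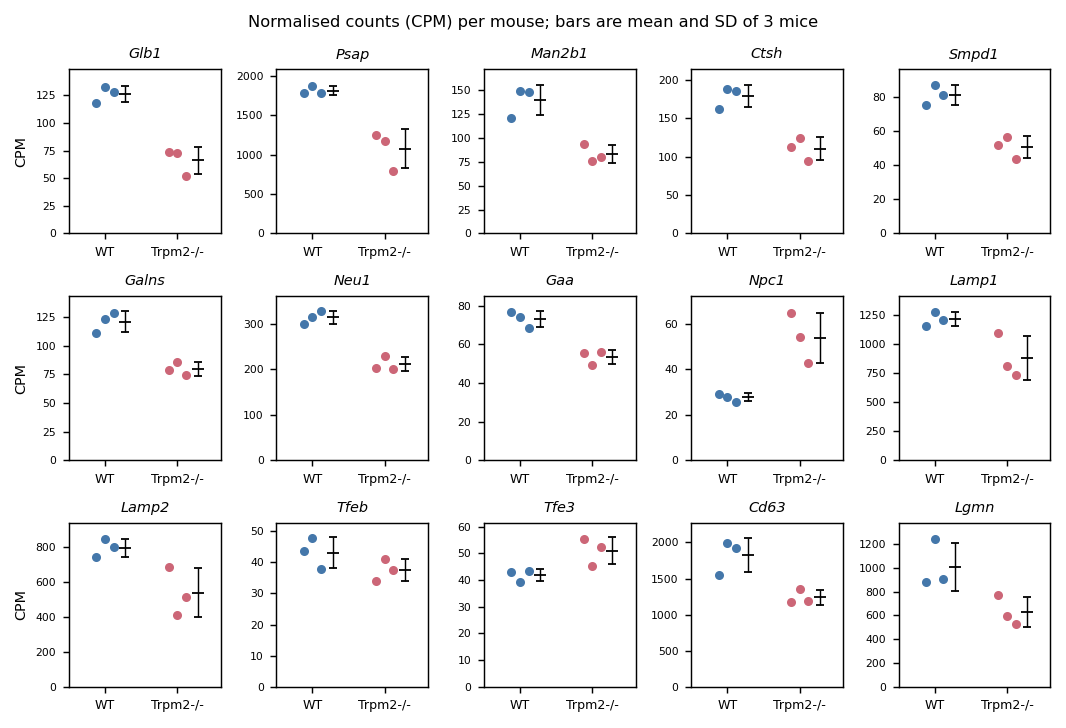
Normalised counts (CPM, y axes from 0) per mouse for the 9 called genes and for Lamp1, Lamp2, Tfeb, Tfe3, Cd63 and Lgmn; points are mice in the order of their numbers, bars the mean and SD of 3 mice. Genotypes are separate in every panel except Tfeb, and in the panels of Npc1 and Tfe3 the Trpm2-/- mice are the higher ones.

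Among the 6 cysteine and aspartic cathepsins, the proteases of the lysosome, 1 was lower, Ctsh. Cathepsin H, an aminopeptidase, had 162, 188 and 185 CPM in WT and 113, 124 and 94.1 CPM in Trpm2-/- kidneys, without overlap. It fell by 0.69 (log2, SE 0.14, edgeR adjusted p = 0.0154). Without WT 2 the adjusted p was 0.0793 and without WT 3 it was 0.0784. Ctsh lies at chromosome 9, 90054152 to 90076089, and its exons overlap no other annotated gene.

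The other 5 cathepsins overlapped between genotypes. Ctsd, the main aspartic protease, was at 1329 ± 131 CPM in WT and 1317 ± 143 CPM in Trpm2-/- kidneys, with a 95% interval for the log2 fold change of -0.37 to 0.35. Ctsb, an abundant cysteine protease, was at 1231 ± 78.4 and 1112 ± 102 CPM, with an interval of -0.48 to 0.19. Both intervals exclude a log2 fold change of -0.69, the point estimate of Ctsh, whose own 95% interval was -1.01 to -0.37. A difference in response between these cathepsins was not tested. Ctsl, a cysteine endopeptidase, was at 615 ± 70.5 and 577 ± 134 CPM, and Ctsz, a carboxypeptidase, at 309.9 ± 20.7 and 299 ± 68.6 CPM. Ctss, expressed mainly by antigen-presenting cells, was low and uneven, at 4.26, 13.4 and 14.7 CPM in WT and 12.7, 3.41 and 4.92 CPM in Trpm2-/- kidneys. Its interval, -1.82 to 0.58, was the widest of the set, so neither a decrease nor an increase could be read for it. Parts of Ctsd (31.3% of its 75-base windows), Ctsl (24.6%) and Ctsb (11.8%) also occur in other annotated genes, so their counts carry more uncertainty. The same holds outside the cathepsins for Arsb (36.9%), Arsa (14.3%), Hexa (9.42%), Ctsa (9.25%), Cd63 (6.47%) and Cln3 (5.96%).

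None of the 3 other peptidases was called by edgeR. Counted without adjustment 2 had a p under 0.05 (Lgmn and Ctsa), and these 2 were called by DESeq2 and none by limma-voom. Lgmn, the asparaginyl endopeptidase legumain that matures cathepsins, was at 878, 1239.8 and 906 CPM in WT and 772, 593 and 528 CPM in Trpm2-/- kidneys. The groups did not overlap, but the WT mice were spread widely, and the log2 fold change of -0.68 (SE 0.20) had an edgeR adjusted p of 0.0561. It was 0.0415 without Trpm2-/- 1. Ctsa, the protective protein that stabilises beta-galactosidase and neuraminidase, was at 266 ± 16.3 CPM in WT and 207 ± 3.38 CPM in Trpm2-/- kidneys (log2 fold change -0.36, edgeR adjusted p = 0.0887). Tpp1, a tripeptidyl peptidase, was at 231, 212 and 231 CPM in WT and 284, 234 and 283 CPM in Trpm2-/- kidneys. All 3 Trpm2-/- mice lay above the WT mice, with a log2 fold change of 0.25 (edgeR adjusted p = 0.262).

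Of the 4 sulfatases, which remove sulfate from glycosaminoglycans and sulfatides, 1 was lower. Galns, which acts on keratan sulfate, was at 111, 124 and 129 CPM in WT and 78.5, 86.2 and 74.4 CPM in Trpm2-/- kidneys. The groups were separate, and it fell by 0.61 (log2, SE 0.13, edgeR adjusted p = 0.0157). The adjusted p was 0.0805 without WT 2, 0.0952 without WT 3 and 0.0527 with WT 1 and Trpm2-/- 4 both left out. Galns lies at chromosome 8, 122578242 to 122611463. Arsa, the arylsulfatase of sulfatide breakdown, was at 15.7, 13.9 and 15.0 CPM in WT and 24.4, 20.1 and 13.9 CPM in Trpm2-/- kidneys, so 2 Trpm2-/- mice were above the WT mice and Trpm2-/- 4 was among them. Its log2 fold change was 0.39 (edgeR adjusted p = 0.263). Ids, the iduronate sulfatase, and Arsb, which acts on dermatan sulfate, overlapped between genotypes, at 34.2 ± 1.68 and 34.5 ± 8.39 CPM for Ids and 23.0 ± 4.78 and 22.9 ± 10.2 CPM for Arsb.

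The 8 genes of lipid breakdown and lipid handling held changes in both directions, with 2 lower (Psap and Smpd1) and 1 higher (Npc1). Psap encodes prosaposin, the precursor of the saposins that present sphingolipids to their hydrolases. It was among the most abundant genes of the set, at 1780.1, 1877 and 1779.8 CPM in WT and 1255, 1179 and 799 CPM in Trpm2-/- kidneys. The WT mice were nearly equal, Trpm2-/- 4 was the lowest, and the gene fell by 0.75 (log2, SE 0.19, edgeR adjusted p = 0.0346). The call was lost when WT 1, WT 2, WT 3 or Trpm2-/- 4 was left out, with adjusted p of 0.0649, 0.125, 0.117 and 0.0548. Psap lies at chromosome 10, 60277627 to 60302597.

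Smpd1, the acid sphingomyelinase, was at 75.5, 87.1 and 81.5 CPM in WT and 51.8, 56.7 and 43.7 CPM in Trpm2-/- kidneys. Every Trpm2-/- mouse was below every WT mouse, and it fell by 0.68 (log2, SE 0.14, edgeR adjusted p = 0.0139). Without WT 2 and without WT 3 the adjusted p was 0.0760 and 0.0664. Smpd1 is at chromosome 7, 105554360 to 105558389.

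Npc1, the membrane protein that moves cholesterol out of the lysosome, was the gene that rose. It was at 29.2, 27.9 and 25.7 CPM in the WT mice and at 64.8, 54.1 and 42.8 CPM in the Trpm2-/- mice. The lowest Trpm2-/- mouse was clearly above the highest WT mouse, and the level was 1.95 times the WT level (log2 fold change 0.97, SE 0.17, 95% interval 0.60 to 1.34, edgeR adjusted p = 0.00696). It was called in 19 of 20 alternative analyses, and its adjusted p was between 0.00372 and 0.0432 when single mice were left out. Per transcript length it was the lowest gene of the set in WT kidneys, at 2.25 ± 0.152 FPKM (fragments scaled to transcript length and library size), and at 4.43 ± 0.888 FPKM in Trpm2-/- kidneys. In the deposited table it lies on chromosome 18, 12189693 to 12236400, and 3.41% of its windows also occur in Rmc1 or Gm15956. Rmc1 had a log2 fold change of -0.03 (edgeR adjusted p = 0.936).

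Npc2, the soluble protein that hands cholesterol to NPC1, overlapped between genotypes at 225 ± 28.8 CPM in WT and 180.0 ± 36.2 CPM in Trpm2-/- kidneys (log2 fold change -0.32, edgeR adjusted p = 0.269). Npc1 and Npc2, which act in sequence, thus had log2 fold changes of opposite sign. Galc, the galactosylceramidase, was at 84.1 ± 8.02 and 67.2 ± 12.4 CPM (log2 fold change -0.32, edgeR adjusted p = 0.214). Its adjusted p was 0.0198 when the fit was corrected for gene length and 0.0394 when it was corrected for GC content. Lipa, the acid lipase, Ppt1, a palmitoyl thioesterase, and Asah1, the acid ceramidase, overlapped between genotypes. Lipa was uneven among the Trpm2-/- mice, at 181, 86.0 and 97.2 CPM, against 140.5, 138 and 108 CPM in WT mice.

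None of the 6 membrane proteins was called by edgeR, although in 3 of them every Trpm2-/- mouse was below every WT mouse (16.8% of all genes) and in 1, Cln3, every Trpm2-/- mouse was above (16.7%). The 3 lower ones, Lamp1, Lamp2 and Cd63, had an unadjusted p under 0.05, and DESeq2 called 2 (Lamp2 and Cd63) and limma-voom 1 (Cd63). LAMP1 and LAMP2 are the major glycoproteins of the lysosomal membrane. Lamp1 was at 1161, 1283 and 1209 CPM in WT and 1098, 814 and 732 CPM in Trpm2-/- kidneys, with Trpm2-/- 1 close to the WT mice. Its log2 fold change was -0.47 (SE 0.18, 95% interval -0.87 to -0.06, edgeR adjusted p = 0.125). Lamp2 was at 747, 850.2 and 800.2 CPM in WT and 689.6, 415 and 518 CPM in Trpm2-/- kidneys, again with Trpm2-/- 1 nearest to WT. Its log2 fold change was -0.56 (SE 0.19, edgeR adjusted p = 0.0891). Without Trpm2-/- 1 both were called, at -0.66 (adjusted p = 0.0409) for Lamp1 and -0.78 (adjusted p = 0.0289) for Lamp2. Lamp2 was also called by edgeR with a gene-length correction (-0.79, adjusted p = 0.0201), with a GC correction (-0.78, adjusted p = 0.0198) and without a filter on low counts (-0.58, adjusted p = 0.0197). Of the 75-base windows of Lamp1, 4.04% also occur in Grtp1 on the opposite strand, which fell by 0.68 on the log2 scale (edgeR adjusted p = 0.0246).

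Cd63, a tetraspanin of late endosomes and lysosomes, was at 1549, 1993 and 1923 CPM in WT and 1172, 1356 and 1187 CPM in Trpm2-/- kidneys. The groups were separate with a log2 fold change of -0.56 (SE 0.17, edgeR adjusted p = 0.0567), and without WT 1 the adjusted p was 0.0442. Scarb2, the receptor that carries beta-glucocerebrosidase to the lysosome, was at 118 CPM in Trpm2-/- 1 and at 60.8 to 77.4 CPM in the other 5 mice. Its log2 fold change of 0.23 (edgeR adjusted p = 0.559) rested on that mouse and was -0.11 without it. Mcoln1, the lysosomal calcium channel, was at 62.4 ± 4.34 CPM in WT and 59.0 ± 0.766 CPM in Trpm2-/- kidneys, with overlap. Cln3, a membrane protein lost in a childhood storage disease, was at 24.7 ± 0.719 and 28.5 ± 0.819 CPM, with all Trpm2-/- mice above all WT mice but without a call.

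Neither transcription factor was called, and neither had an unadjusted p under 0.05 or a call by DESeq2 or limma-voom. Tfeb was at 43.8, 47.8 and 37.8 CPM in WT and 34.0, 41.2 and 37.7 CPM in Trpm2-/- kidneys, with overlapping groups (log2 fold change -0.20, SE 0.14, edgeR adjusted p = 0.398). Tfe3 was at 43.1, 39.2 and 43.3 CPM in WT and 55.2, 45.3 and 52.4 CPM in Trpm2-/- kidneys, where all 3 mice were above the WT mice (log2 fold change 0.28, SE 0.13, edgeR adjusted p = 0.183). The 95% intervals, -0.51 to 0.12 for Tfeb and -0.0047 to 0.57 for Tfe3, exclude a change of 1 on the log2 scale for either.

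Of the 31 genes that were not called, 24 had a log2 fold change below 0, and 29 had a 95% interval that lay within 1 of 0 on the log2 scale. The exceptions were Ctss and Lgmn. In 15 of the 40 genes the log2 fold change was between -0.2 and 0.2.

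The level of the genes, compared per length in FPKM, spanned 2.25 in Npc1 to 578 in Psap in WT kidneys. Psap was at 578 ± 18.2 FPKM in WT and 346 ± 76.8 FPKM in Trpm2-/- kidneys, and Ctsd at 495 ± 49.9 and 494 ± 50.5 FPKM. In WT mice Psap was the highest, above Ctsd without overlap, and in Trpm2-/- mice Ctsd was the highest, above Psap without overlap. Cd63 at 433 ± 55.9, Lamp1 at 398 ± 19.9 and Lgmn at 379.7 ± 75.9 FPKM followed in WT kidneys, and the values of these 3 overlapped. The same 10 genes were the highest in both genotypes. Of the 39 pairs of neighbours in the order of levels, 13 did not overlap in WT mice and 5 did not in Trpm2-/- mice, so most neighbours did not differ beyond the spread between mice. The order over the 40 genes was nearly shared between genotypes, with a Spearman's rho of 0.979 over the 40 gene means, which come from the same 6 libraries.

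**Figure D3:**
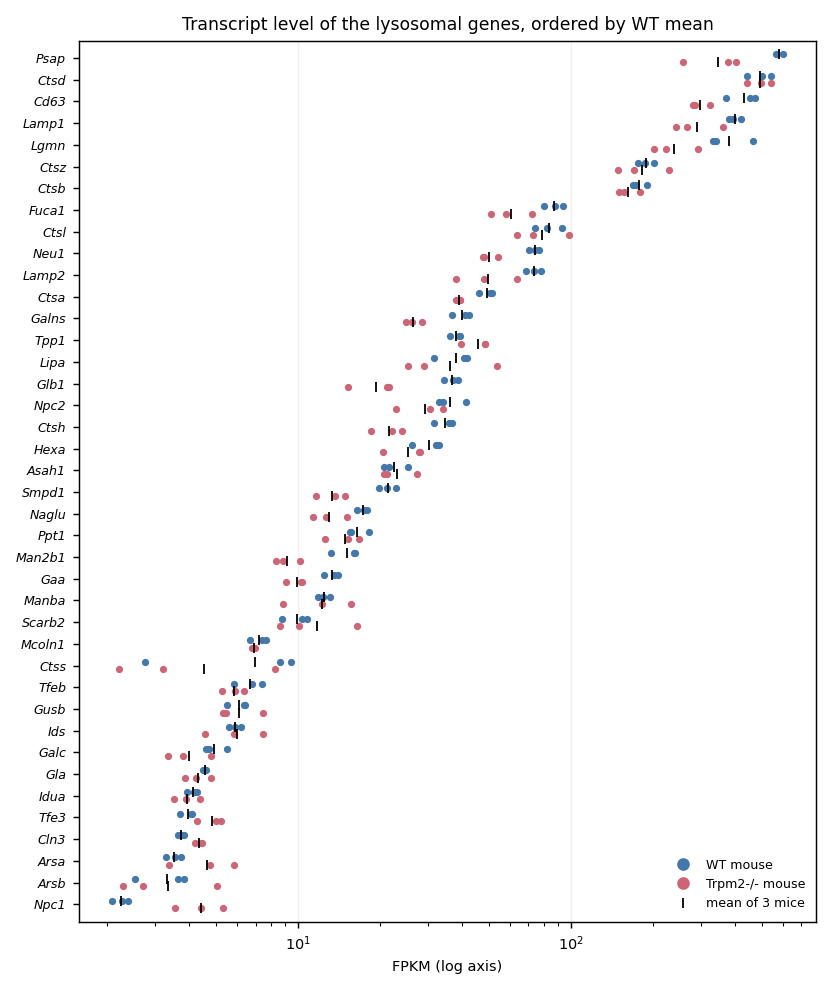
FPKM of the 40 genes (x axis, log scale) in each mouse, ordered by the WT mean; ticks are means of 3 mice. Levels run from 2.25 FPKM for Npc1 to 578 FPKM for Psap in WT kidneys, and for Psap, Glb1 and Neu1 the Trpm2-/- points lie to the left of all WT points.

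The 40 genes together took 1.26, 1.32 and 1.23% of all counts in WT mice and 1.15, 1.07 and 0.945% in Trpm2-/- mice. The genotypes did not overlap in this share, which was given no test. Without the counts of the mitochondrial genome the shares were 1.33 ± 0.0487% in WT and 1.16 ± 0.0913% in Trpm2-/- kidneys (SD, n = 3 each), and they still did not overlap. The genes Cd63, Psap, Ctsd, Ctsb and Lamp1 made up 55.6% of these counts. The summed level of these 5 was 7412 CPM in WT and 5626 CPM in Trpm2-/- kidneys, a ratio of 0.759, and that of the other 35 was 5821 and 4578 CPM, a ratio of 0.787. The 11 glycosidases summed to 1211, 1317 and 1276 CPM in WT and 941, 964 and 790.2 CPM in Trpm2-/- mice, whereas the 6 cathepsins summed to 3536, 3996 and 3490.4 CPM and to 3693, 3529.7 and 3044 CPM, with overlap.

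The Trpm2-/- mice differed more from each other than the WT mice did. The median coefficient of variation over the 40 genes was 7.05% in WT and 16.6% in Trpm2-/- mice, against 12.7 and 19.0% over all genes tested, and it was larger in Trpm2-/- mice for 34 of the 40 genes. Among the Trpm2-/- mice, Trpm2-/- 1 held the highest value in 25 of the 40 genes, against 34.2% of all genes, and Trpm2-/- 4 the lowest in 20, against 32.2%. The median log2 deviation of the 40 genes from the WT mean was -0.11 in Trpm2-/- 1, -0.26 in Trpm2-/- 2 and -0.40 in Trpm2-/- 4, and between -0.07 and 0.08 in the WT mice.

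Other genes of the lysosome were read from 6 lists with 119 genes, all tested. Of these, 14 were lower and 1 was higher, with a median log2 fold change of -0.10; over all genes tested 7.28% were lower and 4.74% higher. With WT 1 and Trpm2-/- 4 both left out 10 were lower and none was higher, when 946 of 15958 genes were lower in all. Without WT 2 and without WT 3, 5 and 6 were lower, when 521 of 16421 and 470 of 16338 genes were lower in all.

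Among 24 other hydrolases and activators 4 were lower and none was higher. Acp5, the tartrate-resistant acid phosphatase, fell by 1.24, Ctsf, a further cathepsin, by 1.22, and Gm2a, the activator that lets beta-hexosaminidase act on GM2 ganglioside, by 1.01 on the log2 scale (edgeR adjusted p = 0.0015, 0.0015 and 0.00344). Gm2a was at 306, 364 and 381 CPM in WT and 179, 183 and 160.0 CPM in Trpm2-/- kidneys, with a clear gap between the genotypes. Of the 119 genes 4 passed the study's threshold, these 3 and Atp6v0a4, described below, whereas none of the 40 genes did.

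Of 17 other membrane proteins and transporters 2 were lower, Tmem9 by 0.72 and Laptm4b by 0.46 on the log2 scale (edgeR adjusted p = 0.00939 and 0.046). The count was 0 without WT 2 and 1 without WT 3, Trpm2-/- 1 or Trpm2-/- 2, and Laptm4b lost its call in 13 of 20 alternative analyses. Of 23 subunits of the V-ATPase, the proton pump that acidifies the lysosome and also works in the plasma membrane of intercalated cells, 5 were lower. Atp6v0a4, a subunit of the kidney pump, fell by 1.24 on the log2 scale (edgeR adjusted p = 0.00546), from 363, 476 and 405 CPM to 219, 131 and 175 CPM. Atp6v1f, Atp6v1h and Atp6v1e1 fell by 0.68, 0.63 and 0.60 (edgeR adjusted p = 0.0152, 0.0312 and 0.0204), and the fifth was Atp6v1d. Over the 20 alternative analyses Atp6v1h lost its call in 9, Atp6v1e1 in 5 and Atp6v1f in 4. Without WT 2 or without WT 3, 1 of the 23 was lower.

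None of the 19 genes of mannose 6-phosphate tagging and sorting and none of the 18 genes of lysosome fusion and positioning was called by edgeR, by DESeq2 or by limma-voom. Counted without adjustment, 2 and 4 of them had a p under 0.05. In other edgeR fits the sorting gene Sorl1 was lower with the gene-length correction, and another, Vps29, with the GC correction. Of the fusion genes 2 were lower without Trpm2-/- 2, 1 without a filter and 1 with the gene-length correction. The median log2 fold changes of the sorting and fusion lists were 0.01 and -0.06. Of 18 relatives and upstream regulators of TFEB, 3 were lower and 1 was higher. Lamtor5 and Lamtor4, parts of the Ragulator scaffold that recruits mTORC1 to the lysosome, fell by 0.92 and 0.72, and Tfec, a relative of TFEB, by 0.74 on the log2 scale (edgeR adjusted p = 0.00671, 0.0421 and 0.0147). Lamtor4 lost its call in 10 of 20 alternative analyses, Tfec in 4 and Lamtor5 in 1. Gsk3b, a kinase that phosphorylates TFEB, rose by 0.58 (edgeR adjusted p = 0.0497), a call lost in 14 of 20 alternative analyses. Without WT 2 or without WT 3, 1 of these 18 was lower and none was higher.

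**Figure D4:**
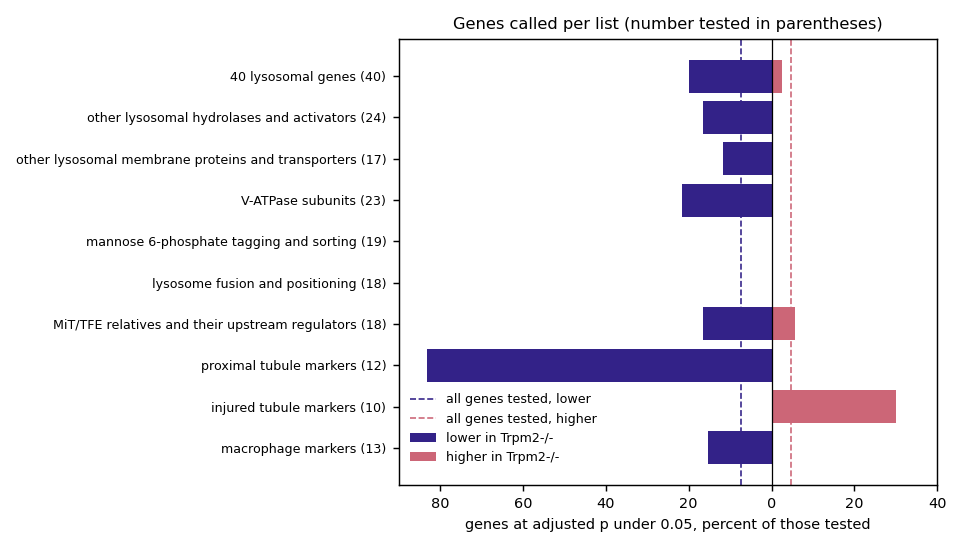
Share of the genes tested in each list (y axis, number tested in parentheses) that was lower (left) or higher (right) in Trpm2-/- kidneys at an edgeR adjusted p under 0.05, in percent (x axis); dashed lines give the shares over all genes, 7.28% lower and 4.74% higher. The 40 lysosomal genes, the other hydrolases, the other membrane proteins and the V-ATPase lie beyond the dashed line on the left. So do the relatives and regulators of TFEB and the macrophage markers, and the proximal tubule markers reach farthest left. The sorting and fusion lists have no bar.

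The summed levels of the lysosomal genes and of the proximal tubule markers were both lower in every Trpm2-/- mouse than in any WT mouse. Within each genotype, of 3 mice only, the order of the mice differed between the sums, a description without a test. In Trpm2-/- 1, 2 and 4 the lysosomal sum was 11330, 10284 and 8999 CPM, and the proximal tubule sum was 2433, 2213 and 2727 CPM. Among WT mice the lysosomal sum was highest in WT 2 and the proximal tubule sum in WT 3. Of 12 markers 10 were lower, their median log2 fold change was -1.32, and their summed level was 5214 to 6550.1 CPM in WT and 2213 to 2727 CPM in Trpm2-/- mice. Lrp2 and Cubn, which encode megalin and cubilin, fell by 0.76 and 1.39 on the log2 scale (edgeR adjusted p = 0.0283 and 0.00401). Of 9 markers of the loop of Henle and distal nephron 2 were lower (Umod and Aqp2), with sums of 2343 to 3357 CPM in WT and 1009 to 1871 CPM in Trpm2-/- mice. Of 10 markers of injured tubule 3 were higher (Krt20, Sox9 and Cd44), and the sums were 17651 to 19574 CPM and 19611 to 27755 CPM. Over all genes tested 7.28% were lower and 4.74% higher. Without WT 2 and without WT 3, 6 proximal tubule markers each were lower, and 1 and 0 injury markers were higher. Without Trpm2-/- 1 and without Trpm2-/- 4, 1 and 2 injury markers were higher. Increases over all genes went from 750 to 176 and 160 without WT 2 and without WT 3. They went to 421 and 782 without Trpm2-/- 1 and without Trpm2-/- 4. Decreases over all genes went from 1152 to 521 and 470 without WT 2 and without WT 3. The markers of these cell types were present in every mouse, and their part in the lower lysosomal transcripts was not tested.

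Macrophages are also rich in lysosomes. Of 14 macrophage markers 13 were tested and 2 were lower (C1qa and C1qc; 4 were called by DESeq2 and none by limma-voom), while the summed level overlapped, at 110.2 to 172 CPM in WT and 121 to 200.4 CPM in Trpm2-/- mice. Over all genes tested edgeR called 7.28% lower and 4.74% higher. Members of the macrophage list differed in direction. C1qa was at 4.93, 19.7 and 23.3 CPM in WT and 5.63, 1.98 and 4.05 CPM in Trpm2-/- mice, whereas Lyz2 was at 4.996, 11.2 and 12.1 CPM and at 43.1, 12.6 and 16.4 CPM (log2 fold change 1.35, edgeR adjusted p = 0.0911), with Trpm2-/- 1 far above the others. The study's threshold was passed upwards by 1 marker, Lyz2, and downwards by 3, C1qa, C1qb and C1qc. Cd14 had a log2 fold change of 0.82 (edgeR adjusted p = 0.0718). Neutrophil markers (5 of 7 tested) and endothelial markers (7 tested) had no called gene, as had the single tested T and B cell marker and the 5 podocyte markers, by edgeR. An unadjusted p under 0.05 was reached by 1 neutrophil and 3 podocyte markers, of which DESeq2 called 1 each and limma-voom none, and by none of the endothelial, T and B cell markers. The sums were 3.27 to 14.1 CPM in WT and 6.76 to 12.9 CPM in Trpm2-/- mice for neutrophils and 1.99 to 3.27 CPM and 1.96 to 4.85 CPM for T and B cells. Endothelial markers summed to 92.1 to 126 CPM in WT and 62.8 to 246 CPM in Trpm2-/- mice, the highest being Trpm2-/- 4. Of 5 tested fibroblast markers Acta2 was higher, with sums of 45.5 to 70.9 CPM and 50.1 to 126 CPM, and of 4 tested urothelial markers Upk3a and Psca were lower. The part of these cells in the values of the 40 genes was not tested.

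**Figure D5:**
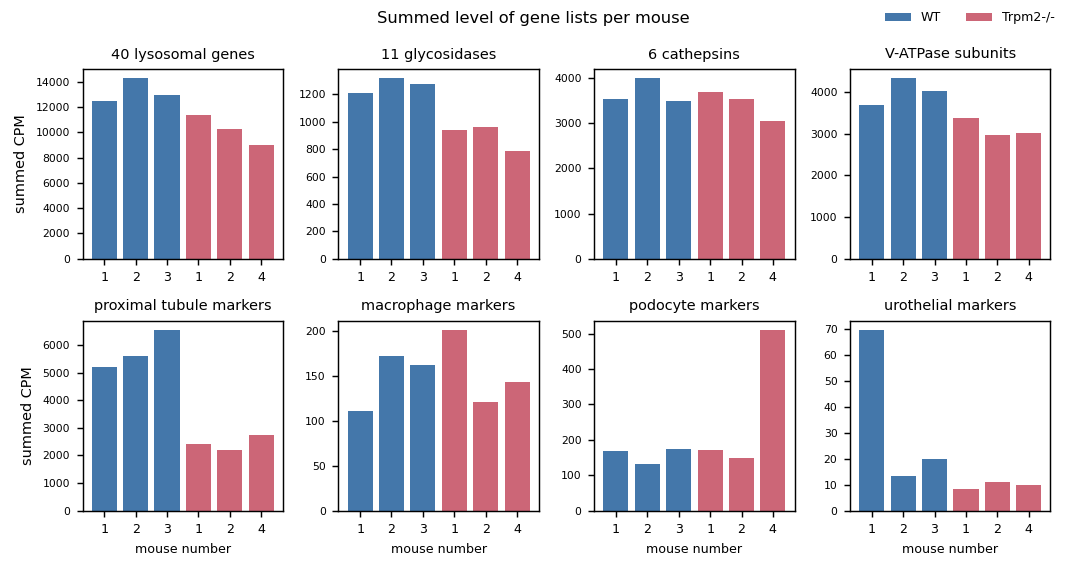
Summed CPM (y axes from 0) of 8 gene lists in each mouse, with WT mice 1, 2 and 3 in blue and Trpm2-/- mice 1, 2 and 4 in red. The glycosidase and proximal tubule sums are lower in every Trpm2-/- mouse, the cathepsin and macrophage sums overlap, podocyte markers stand out in Trpm2-/- 4 and urothelial markers in WT 1.

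The log2 fold change varied with gene length. Across the 40 genes the log2 fold change and the log2 length had a Pearson's r of 0.361 and a Spearman's rho of 0.352, and across all 15816 genes tested 0.201 and 0.275, as a description over genes that share the same 6 libraries. With a correction for gene length 9 of the 40 genes were lower, 7 of them among the 8 named above (Psap was not, and Galc and Lamp2 were added), and Npc1 was higher with a log2 fold change of 0.73 (adjusted p = 0.0185). Over all genes 1079 of 15816 were lower with this correction.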

How the data were processed

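Kidney RNA of 3 WT and 3 Trpm2-/- mice was sequenced on an Illumina platform. The authors deposited a table of read counts per gene and a table of FPKM values, both with the same genes. The processing notes per the labels name HISAT2 and StringTie, without versions, and the build mm9, whereas 39 of the 40 genes carry the positions of GENCODE M21 on GRCm38; positions are printed as in the tables. The setting for strand and the counting tool are not given in the sources used here. The labels give 1 sample per mouse and no batch, and the p-values measure the spread between these mice.

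Genes were tested with edgeR 4.0.16 (R 4.3.3; filterByExpr defaults, TMM, quasi-likelihood, two-sided, genotype only) on the deposited counts, with Benjamini-Hochberg adjustment over 15816 genes. CPM used the TMM library sizes. FPKM values as deposited served for levels between genes and, as log2(FPKM + 1) with limma 3.58.1, for an alternative; DESeq2 1.42.0 and limma-voom were others. On simulated counts for 15816 genes, 192 of the genes changed 4-fold passed the filter, and edgeR recovered 189 of these and called 9 others. A 4-fold change is larger than that of any of the 40 genes, so recovery of changes of their size was not measured. The 40 genes, the other lists and the tests were chosen with earlier results of these data known. Values per mouse were given for genes at an adjusted p under 0.05, the 5 largest and 5 smallest log2 fold changes, Lamp1, Lamp2, Tfeb and Tfe3; from the other lysosomal lists up to 4 genes of smallest p were taken. Lgmn, Cd63, Ctss, Lipa, Lyz2, Cd14 and genes named for a count were added after their values were seen. Length and GC corrections and the fit without WT 1 and Trpm2-/- 4 were also added then. The values of 1 gene of the other lysosomal lists are not reported here.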

Additional observations from a re-analysis of the deposited data

How the results depend on the processing

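The count of lower lysosomal genes, 8, was 13 with DESeq2, 3 with limma on log2(FPKM + 1) without a filter (where none was higher, 0 instead of 1), 1 with a replicate block, 4 with WT 1 and Trpm2-/- 4 both left out, and 1 to 10 when single mice were left out. Over all genes the number lower also moved, from 1152 of 15816 to 1444 of 15816 with DESeq2 and 405 of 28884 with the unfiltered FPKM fit. It was 946 of 15958 with WT 1 and Trpm2-/- 4 both left out, and 470 to 1240 when single mice were left out. The numbers 1 and 2 occur in both genotypes; same-numbered mice deviated from their group means with correlations of 0.12 and 0.01, so no pairing was assumed. WT 3 and Trpm2-/- 4 share their number with no other mouse, so under the block only mice 1 and 2 of each genotype inform the difference. Under the block 341 genes were higher and 661 lower in all, against 750 and 1152. The count past the study's threshold, 0 in each direction, was 1 upwards (Npc1) with the block and with WT 1 and Trpm2-/- 4 left out, 0 to 1 upwards and 0 to 2 downwards when single mice were left out. The median log2 fold change of the set ranged from -0.35 to -0.11 over those fits. Without the mitochondrial genome the share of counts moved to 1.33% in WT and 1.16% in Trpm2-/- mice, since its total is smaller. Scarb2, at 0.23 in the log2 fold change, was -0.11 without Trpm2-/- 1 and 0.42 without Trpm2-/- 4, and at most 0.45 over all alternatives. Over the 20 alternatives Glb1 kept its call in all, Npc1 in 19, Psap in 10 and Gaa in 5. Each remaining lower gene lost its call in 4, which for all of them included the block and the fits without WT 2 and without WT 3. Of the values that answer the comparison, 99 of 115 counted as unchanged by a rule that allowed some difference. For example, 6 lower genes with limma on log2(FPKM + 1), instead of 8, counted as unchanged, although fewer genes were called. The cause of the changes was not tested. With 3 mice a group, a common dispersion of 0.0445 and a median standard error of 0.16 (log2), no decrease smaller than that of Gaa, 0.45, was called in the set.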
